A study of Mus musculus and Rattus norvegicus with 96 samples.

Results

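The genes described here are 10 members of the circadian clock in mouse liver: Arntl, Clock, Per1, Per2, Per3, Cry1, Nr1d1, Nr1d2, Dbp and Tef. They were chosen by name, as rows of the table of estimated counts, which holds 24543 genes. Tests were run on the 13370 genes whose geometric mean over the 48 libraries exceeded 1 count, and all 10 were among them. Expression is given as CPM, the count of a gene scaled to a fixed total of the counts assigned to genes in the same library.

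The livers came from 12 male B6C3F1 mice, 10 to 11 weeks old, of which 6 drank water with 600 ppm phenobarbital (PB) for 7 days and 6 drank plain water (Con). Each liver gave 4 preparations. Liver pieces were frozen (FR) or fixed directly in 10% neutral buffered formalin for about 18 h and embedded in paraffin (FFPE). Portions of the frozen material were later fixed in 70% ethanol (FR>OH) or in formalin (FR>FFPE) and embedded as well, so FR, FR>OH and FR>FFPE share 1 frozen sample and FFPE is another piece of the same liver. This gave 8 groups of 6 libraries of total RNA depleted of ribosomal RNA. Per the study's methods, RNA of FFPE samples was extracted by another protocol than that of frozen tissue, with proteinase K and heating. FFPE samples were also fragmented for less time. The methods do not name FR>OH at these steps. Where the steps differ from FR, they cannot be told apart from preservation. The sources used here do not give the hour at which the mice were killed.

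The circadian clock is a feedback loop of transcription that runs in nearly every cell and in the liver times the use of many metabolic genes. The proteins of Arntl (also called Bmal1) and Clock pair and bind E-box elements in DNA, switching on the Per and Cry genes, whose products then inhibit the pair. The same pair switches on Nr1d1 and Nr1d2, receptors that repress Arntl through RORE elements, and Dbp and Tef, which act on other genes through D-box elements, so within a day Arntl and its targets peak at different hours.

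Total counts on genes ranged from 4952797 to 13702672 per library. They were highest in FR, at 11737338 to 13702672, and lowest in FFPE, at 4952797 to 6760422, and the share of reads that counted towards genes was 48.5% ± 1.76 (SD, n = 12) in FR and 25.1% ± 1.86 in FFPE. The rarest members rested on few counts, since the lowest library had 5 for Per3, 6 for Dbp and 7 for Per1, against 820 for Clock. Cyp2b10, which PB induces, was 12.40 ± 0.35 (SE) log2 units higher in PB than in Con in FR, in the direction of the labels. Hepatocyte markers (6 of 6 in the table) summed to between 22416 and 91500 CPM, and the lists for Kupffer, endothelial, stellate, cholangiocyte, erythroid and lymphocyte cells were all measured, with no defining marker at 0 in every library of a group. In whole liver, fewer cells of a type and less RNA per cell cannot be told apart.

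The DNA before the start sites shows which of these elements lie close to the members. The RefSeq promoter windows of GRCm38.p6, 250 bases before to 50 after each start, held 14 windows for 9 of the 10 members, and Per2 had none. The E-box was searched as CACGTG, the D-box as TTANGTAA, the RORE core as TNGGTCA and the cAMP response element as TGACGTCA, on both strands. The stretches below are those upstream of the start sites in which E-boxes, D-boxes or the Arntl RORE cores were found, written 5′ to 3′ on the strand of the gene with the motif in capitals.
Per1 E-box, chr11:69098763-69098808, plus strand: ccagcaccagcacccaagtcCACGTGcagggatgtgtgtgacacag
Cry1 E-box, chr10:85185089-85185134, minus strand: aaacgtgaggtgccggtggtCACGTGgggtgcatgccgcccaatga
Tef E-box, first start site, chr15:81802526-81802571, plus strand: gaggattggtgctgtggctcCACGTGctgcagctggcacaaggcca
Tef E-box, second start site, chr15:81811256-81811301, plus strand: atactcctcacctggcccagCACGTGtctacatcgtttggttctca
Per3, 2 D-boxes, chr4:151044796-151044890, minus strand: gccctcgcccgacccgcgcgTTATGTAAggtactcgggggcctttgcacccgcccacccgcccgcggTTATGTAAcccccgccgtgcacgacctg
Arntl, 2 RORE cores, chr7:113207245-113207310, plus strand: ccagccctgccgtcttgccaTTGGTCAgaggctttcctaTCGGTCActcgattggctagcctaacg

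The E-box was in 4 of the 14 windows, those of Per1, Cry1 and Tef, and in 7.15% of all 32851 windows. The D-box was in the window of Per3, the RORE core in windows of Arntl, Per3 and Tef, and the cAMP response element in none of the 14. N stands for any base, and the Arntl matches shown, TTGGTCA and TCGGTCA, differ there. A further Arntl match, TAGGTCA, began at base 31 after another start site and lies outside the stretch shown. Of all windows, 2.32% held the D-box, 11% the RORE core and 1.79% the cAMP response element. A match describes the letters only, and its absence from so short a window says nothing of the factor that binds it.

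The members spanned a wide range of levels. Per kilobase of exon in FR Con libraries, Nr1d1 stood at 16.9 ± 6.36 CPM per kb (SD, n = 6) and Nr1d2 at 13.1 ± 2.14, followed by Clock at 9.34 ± 0.714. Next came Tef at 4.54 ± 1.43, Arntl at 3.12 ± 0.778 and Cry1 at 3.11 ± 0.973. The lowest were Per2 at 1.81 ± 0.370, Dbp at 1.72 ± 1.60, Per1 at 0.652 ± 0.339 and Per3 at 0.422 ± 0.287. Of the neighbours in this order, Clock and Tef alone did not overlap over the 6 mice, since the lowest Clock library had 8.73 and the highest Tef library 7.16 CPM per kb. Exons of Nr1d1 share 263 bases with Thra on the opposite strand, those of Dbp share 539 bases with Sphk2, those of Tef 193 with Gm17597 and those of Arntl 33 with Gm45355. Whether the counting used the strand was not stated, so reads in those bases may be split between the genes.

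With the mean of each group removed, the spread between mice exceeded that between the preparations of a mouse for 9 of the 10 members, all but Clock. Removing these means takes out the shift that a preparation shows in all mice. The spread between mice was largest for Dbp. Dbp, the D-box activator, ranged in FR from 1.15 CPM in Con mouse 8C over a median of 3.58 to 13.8 CPM in Con mouse 8A. In FR>OH it ranged from 0.932 to 28.5 CPM, in FR>FFPE from 1.65 to 21.6 and in FFPE from 1.18 to 21.5. Mouse 8C was the lowest and mouse 8A the highest of the 12 in each of the 4 preparations, so that the ratio of highest to lowest lay between 12.1 and 30.5. Both mice drank plain water.

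**Figure D1:**
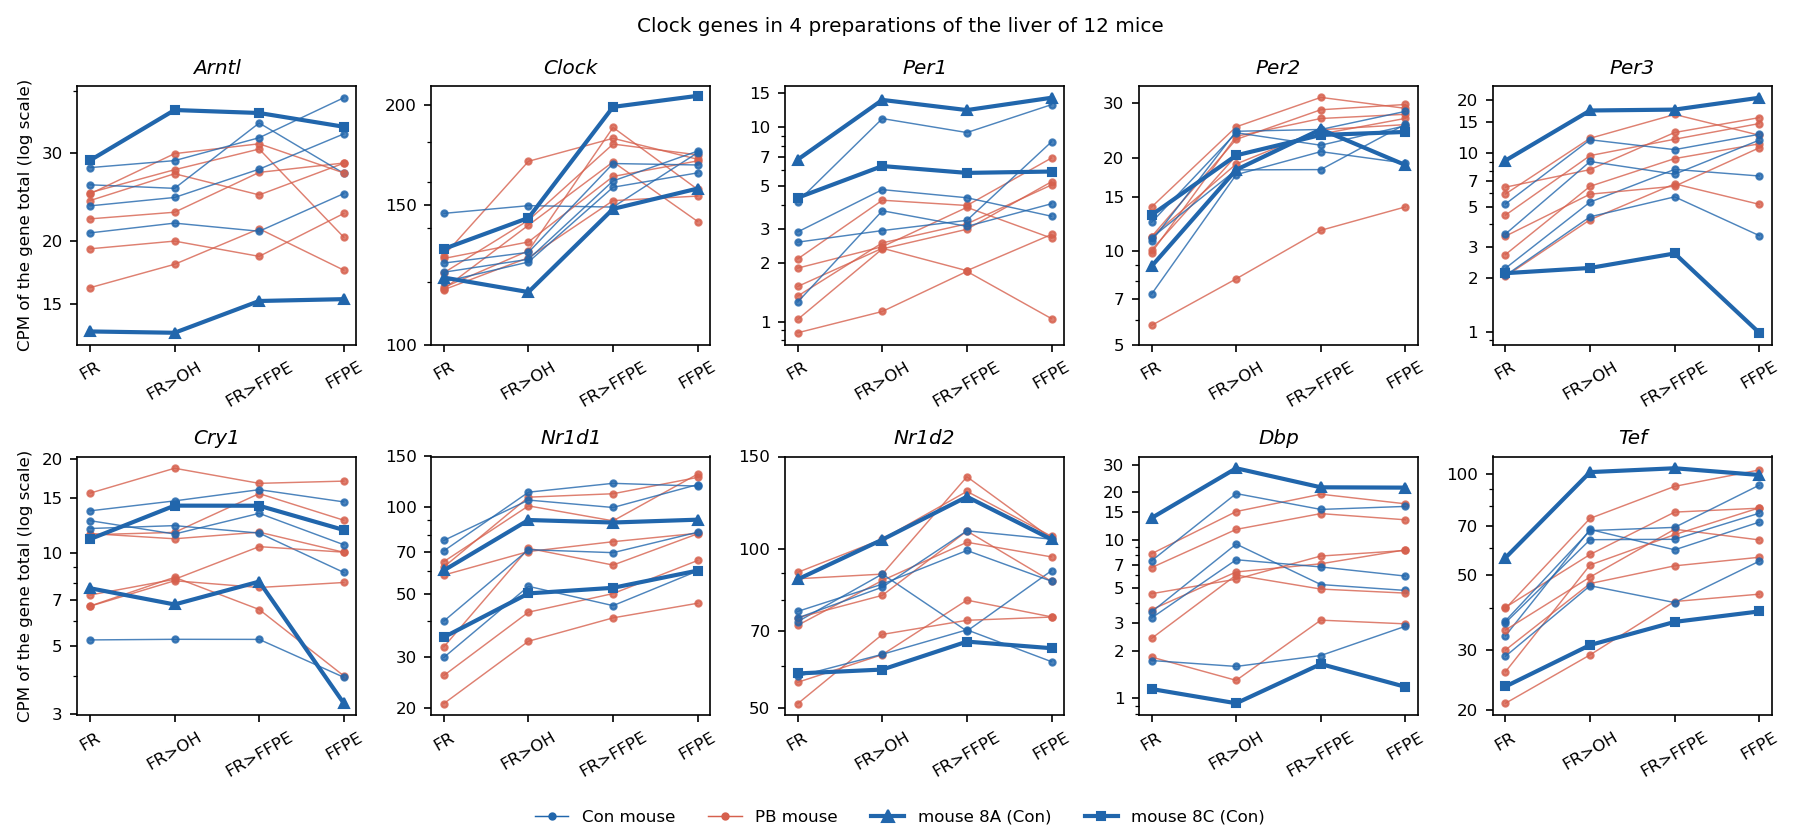
CPM of each clock gene (log axis) in the 4 preparations, with a line for each of the 12 mice, blue for Con and red for PB; triangles mark mouse 8A and squares mouse 8C. For Dbp, mouse 8A is at the top and mouse 8C at the bottom in all 4, from 13.8 and 1.15 CPM in FR to 21.5 and 1.18 in FFPE.

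Other targets of the activator pair gave a like order of mice. Per3 was 9.12 CPM in FR of mouse 8A, the highest, and 2.13 in mouse 8C, which stood close to the lowest mouse, 20B, at 2.04. In FFPE Per3 was 20.5 CPM in mouse 8A and 0.986 in mouse 8C, the latter from 5 counts. Tef, a relative of Dbp, was 56.3 CPM in FR of mouse 8A, 23.4 in mouse 8C and 20.9 in mouse 20B, the lowest. In FFPE Tef was 99.0 CPM in mouse 8A, behind the 102.5 of mouse 20D, and 39.0 in mouse 8C, the lowest of the 12.

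Arntl, the activator, had the opposite extremes. In FR it was lowest in mouse 8A at 13.2 CPM and highest in mouse 8C at 29.1, with a median of 23.9 over the 12 mice. Mouse 8A remained lowest in the other 3 preparations, at 13.1, 15.2 and 15.3 CPM. Mouse 8C was also highest in FR>OH and FR>FFPE, at 36.6 and 36.1 CPM, and mouse 90C was highest in FFPE at 38.8. Its partner Clock moved little, between 117 and 146 CPM in FR, and its ratio of highest to lowest mouse was at most 1.46 in any preparation.

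The repressors had extremes of their own. Per1 was highest in mouse 8A in all 4 preparations, at 6.82 CPM in FR and 14.2 in FFPE, and lowest in PB mouse 20B, at 0.876 and 1.04 CPM. Per2 was likewise lowest in mouse 20B in all 4, at 5.77 CPM in FR against 7.27 for the next mouse, 21C, and 8.15 CPM in FR>OH against 17.7. Cry1 was highest in PB mouse 75C throughout, at 15.6 CPM in FR, and lowest in Con mouse 82B in FR, FR>OH and FR>FFPE, at 5.22 to 5.24 CPM. Mouse 20B also had the least Nr1d1 in all 4 preparations, 20.7 CPM in FR against a median of 49.1 and a maximum of 76.6 in mouse 8D. Nr1d2, the close relative of Nr1d1, spanned a narrower range in FR, from 50.9 CPM in mouse 75C to 90.4 in mouse 20D.

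An F test of the mouse terms beside the 8 groups (edgeR quasi-likelihood, Benjamini-Hochberg over 13370 genes) called all 10 members. The same test called 61.9% of all genes, so the count itself says little, and the sizes are what place the members. The SD between mice of log2(CPM + 0.5), after the group means were removed, was 1.16 for Dbp, 0.746 for Per3, 0.577 for Per1, 0.551 for Nr1d1 and 0.545 for Cry1. It was 0.442 for Tef, 0.354 for Arntl, 0.344 for Per2, 0.290 for Nr1d2 and 0.0859 for Clock, and the median of all genes was 0.123. Only 0.217% of genes varied more between mice than Dbp, and 69.4% varied more than Clock. Between preparations of a mouse, again without the group means, the SD was 0.298 for Dbp and 0.0880 for Clock, beside 0.180 for the median gene. The adjusted p was 4.13e-27 for Dbp (F = 91.9), the largest F of the members, and Clock had the smallest F, 4.90. All 10 members were also called with FR, FR>OH and FR>FFPE alone, under TMM scaling and by limma on the log2 CPM table of the authors.

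**Figure D2:**
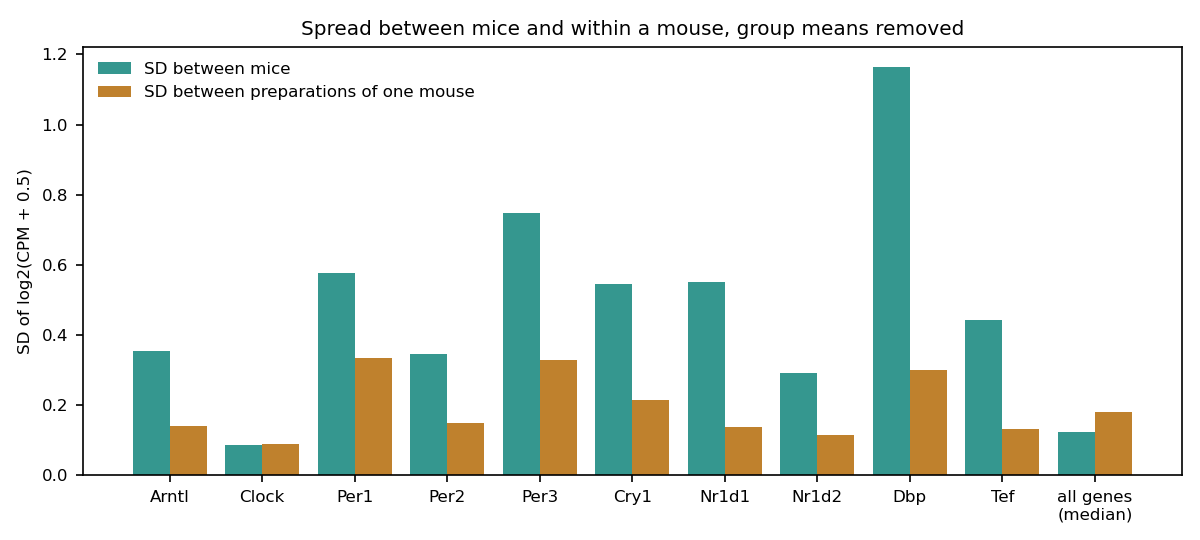
SD of log2(CPM + 0.5), after the group means were removed, between the 12 mice and between the 4 preparations of a mouse. Bars are given for each clock gene and for the median of all 13370 genes. Dbp had 1.16 between mice against 0.298 within a mouse, while Clock had 0.0859 against 0.0880.

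The question of whether a preserved piece of liver keeps the level of its mouse was taken up by correlating each member over the 12 mice between every 2 preparations, on values centred within each treatment. Of the 60 relations (6 pairs of preparations for 10 members), 54 passed an adjusted p of 0.05 in a permutation test with 100000 resamples, two-sided, mice permuted within treatment. All 54 were positive, and 50 passed on ranks. Pearson's r for Dbp was between 0.941 and 0.981 over the 6 pairs and Spearman's rho between 0.916 and 0.965. The adjusted p of r was between 0.0002 and 0.000246. For FR with FR>FFPE the unadjusted p of Dbp, 1e-05, is the smallest the permutations can give. Without the 2 mice farthest from the median, r for Dbp was between 0.908 and 0.980.

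Nr1d1 agreed almost as closely, with r between 0.928 and 0.979. Cry1 gave r between 0.844 and 0.948, Tef between 0.835 and 0.962, Nr1d2 between 0.817 and 0.930 and Per3 between 0.781 and 0.945. Arntl gave 0.738 to 0.970, Per2 0.748 to 0.933 and Per1 0.601 to 0.921. Every relation of these 8 genes and of Dbp passed except 1 of Per2 (adjusted p = 0.0674). Within the 6 Con mice Per2 fell to between -0.0766 and 0.761, while within the 6 PB mice, which include 20B, it was between 0.925 and 0.993. Without the 2 farthest mice, the r of Per2 dropped to a range of 0.227 to 0.741.

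Clock was the exception, with r between 0.0827 and 0.755 and 1 of 6 relations passed. Over all 13370 genes the median of the 6 r values had a median of 0.371, and it was 0.971 for Dbp and 0.560 for Clock. Genes with a higher median r than Dbp made up 0.748% of all, and those with a higher one than Clock 30.0%. Relations that cross between the directly fixed piece and the frozen sample had a median r of 0.979 for Dbp, beside 0.963 among the 3 portions of frozen liver. For Arntl these medians were 0.823 and 0.922.

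Some members also moved with each other over the mice. On the mouse mean over the 4 preparations, 12 of 45 pairs passed an adjusted p of 0.05 by the same permutation test, 9 of them positive and 3 negative. The share that passes among pairs of other genes is not given here, so these counts are not a result particular to the members. Under TMM scaling 16 of the 45 passed, 8 of them positive and 8 negative. TMM multiplies the total of each library by a factor from a trimmed mean of log ratios between libraries. The D-box factors Dbp and Tef had r = 0.969 (rho = 0.958, adjusted p = 0.00015), and Dbp and Per3 r = 0.966 with rho = 1, the same order of all 12 mice (adjusted p = 0.00015). Per3 and Tef gave r = 0.958. These adjusted p rest on 1e-05, the smallest p that the permutations can give. Without mice 8A and 8C, the 2 farthest, r was 0.941 for Dbp and Tef and 0.951 for Dbp and Per3.

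Nr1d2 belonged to the same set, with r = 0.938 to Dbp, 0.928 to Tef and 0.895 to Per3, and adjusted p of 0.000975, 0.00054 and 0.00054. Nr1d1 followed less closely, at 0.763 with Dbp (adjusted p = 0.0289) and 0.755 with Tef (adjusted p = 0.0300). Per1 and Per2 did not pass with Dbp, with r = 0.428 and 0.221 and adjusted p of 0.372 and 0.523.

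**Figure D3:**
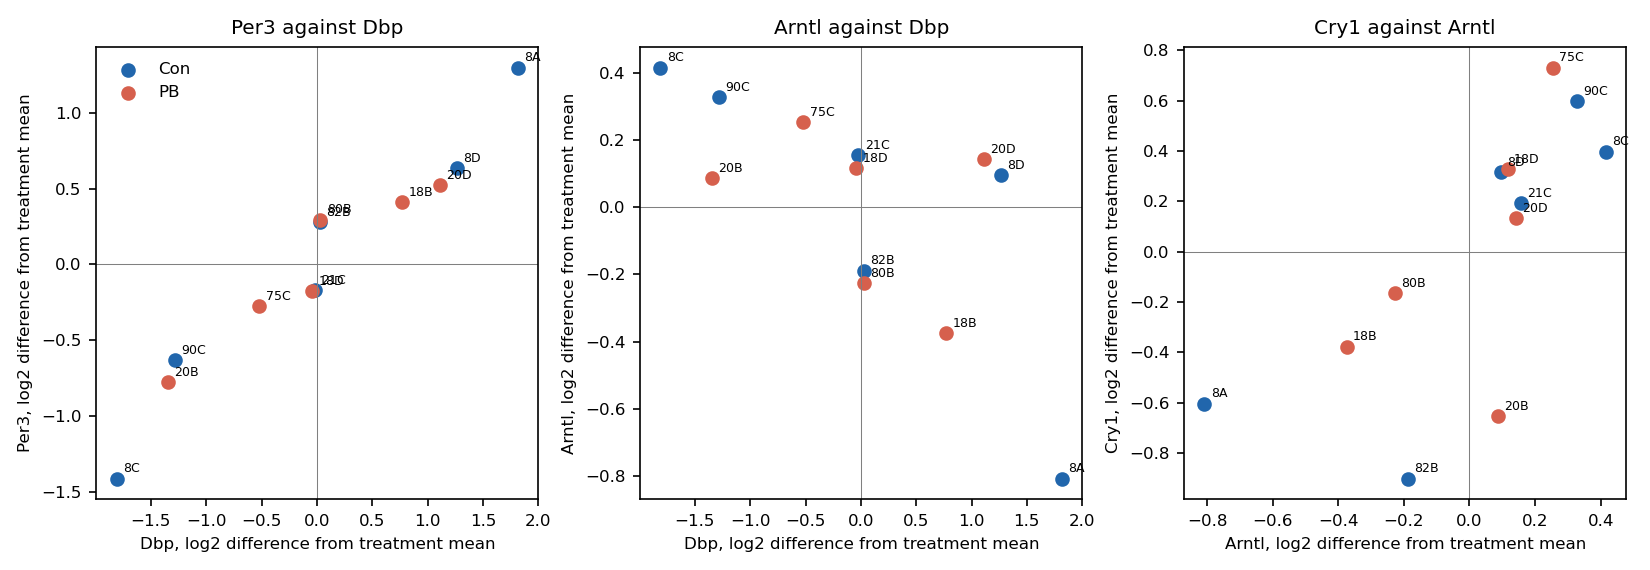
Mouse means over 4 preparations of log2(CPM + 0.5), as differences from the mean of the treatment, with 1 point for each of the 12 mice. Per3 rises with Dbp (r = 0.966), Arntl falls with Dbp (r = -0.691, adjusted p = 0.0649, with mouse 8A at the lower right), and Cry1 rises with Arntl (r = 0.721).

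The activators ran against this set. Arntl was negatively related to Per3 (r = -0.787, rho = -0.664, adjusted p = 0.0381) and to Nr1d2 (r = -0.708, rho = -0.727, adjusted p = 0.0460), and Clock to Per3 (r = -0.830, rho = -0.832, adjusted p = 0.0161). These adjusted p are those of r. By the permutation test on ranks, Arntl with Per3 did not pass (adjusted p = 0.0797). Clock with Dbp (0.0162) and with Tef (0.0484) passed on ranks, though not by r (0.0574 for both). Clock varied no more between mice (SD 0.0859) than within a mouse (0.0880). Arntl with Dbp (r = -0.691, adjusted p = 0.0649) and with Tef (r = -0.688, adjusted p = 0.0649) did not pass. Without mice 8A and 18B, which were farthest from the median of Arntl, r was -0.645 with Per3, -0.559 with Nr1d2 and -0.458 with Dbp. Cry1 rose with Arntl (r = 0.721, rho = 0.811, adjusted p = 0.0491), at 0.742 without the same mice. In FR libraries alone 8 of the 45 pairs passed, among them Arntl with Per3 (adjusted p = 0.0380) but not Arntl with Nr1d2 (0.0975) or Cry1 (0.107), nor Clock with Per3 (0.107). In FFPE libraries alone 12 passed, among them Clock with Per3 (adjusted p = 0.0264), but no pair with Arntl, at 0.127 for Per3, 0.127 for Nr1d2 and 0.160 for Cry1.

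**Figure D4:**
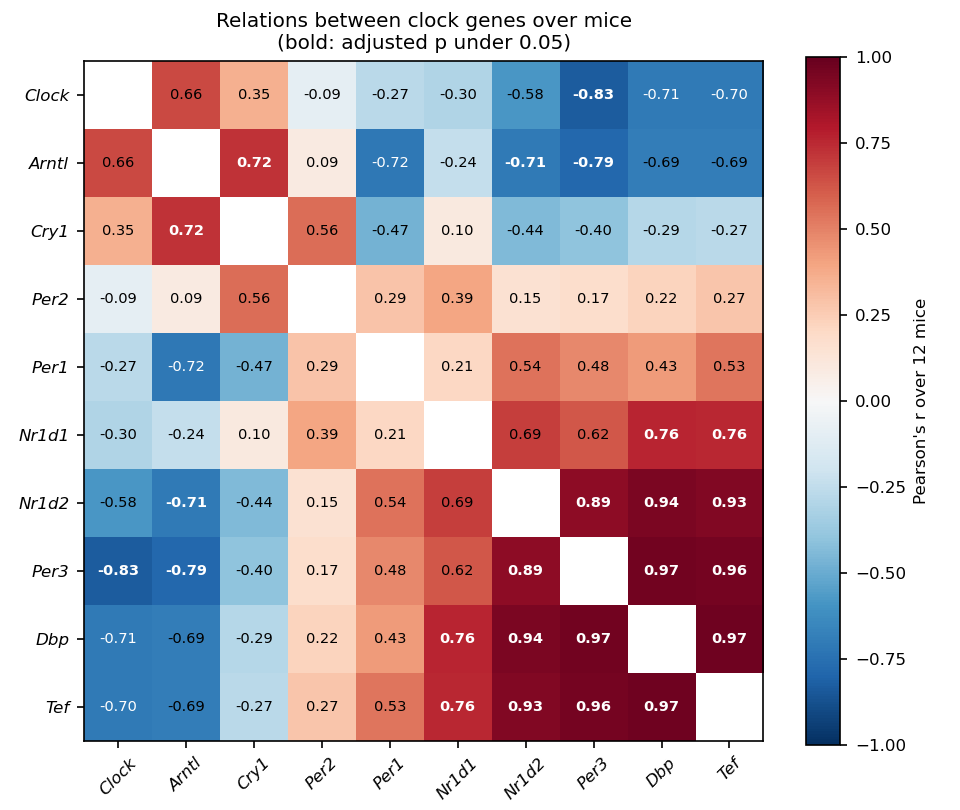
Pearson's r between each pair of clock genes over 12 mice, on the mouse mean over 4 preparations with the treatment mean removed, with bold figures for an adjusted p under 0.05. The block of Nr1d2, Per3, Dbp and Tef has r from 0.89 to 0.97, and Arntl and Clock are negative against that block, from -0.58 to -0.83.

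The extreme mice were set against depth and the other cell types. In FR, the total count was 11737338 in mouse 8A, the lowest of the 12, and 12219984 in mouse 8C. The hepatocyte markers summed to 59946 CPM in mouse 8A and 77718 in mouse 8C, both inside the range of the 12 mice, 43581 to 91500. The Kupffer cell markers summed to 350.7 and 330.4 CPM and the endothelial markers to 295.0 and 281.3 CPM in the same mice. In FR, mouse 8A and mouse 8C were neither highest nor lowest of the 12 in any marker sum. In other preparations they were in some. Mouse 8A was lowest for endothelial markers in FR>OH (153.4 CPM) and FR>FFPE (207.1), for stellate markers in FR>FFPE (180.3) and FFPE (196.0) and for lymphocyte markers in FR>OH (10.1), and mouse 8C was highest for erythroid markers in FFPE (402.7). Mouse 20B, with the least Per1, Per2 and Nr1d1, had the highest Kupffer cell and lymphocyte sums in all 4 preparations, at 529.9 and 29.6 CPM in FR, the lowest hepatocyte sum in FR, 43581 CPM, and the lowest erythroid sum in FFPE, 189.5 CPM. The part of these differences in the members' values was not tested.

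Among 12287 other genes with a mean of at least 1 CPM, those most like Dbp over the mice were Tef, Per3, Nr1d2, Smim19 (r = 0.863) and Pptc7 (r = 0.845). Those at the opposite end were Loxl4 (r = -0.965), Suco (r = -0.908), 6430548M08Rik (r = -0.905), Cd180 (r = -0.856) and Vsir (r = -0.850). The genes most like Arntl were Ms4a4d (r = 0.948), Alyref (r = 0.938), Lgalsl (r = 0.927), Npas2 (r = 0.927) and Ptk2 (r = 0.922), and Npas2 encodes a relative of Clock that also pairs with the Arntl protein. Among the genes least like it were H2-Bl (r = -0.907), 1810013L24Rik (r = -0.840), Dst (r = -0.839) and Wtip (r = -0.839). These are the extremes of 12287 values over 12 mice and are given as a description.

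As a share of the counts on genes, the Per genes, Nr1d1 and Tef were higher in all 3 embedded preparations than in FR, a direction that the log2 CPM of the authors reversed for Nr1d1 in FFPE (-0.03). The 3 comparisons share the FR libraries, so their values are given side by side. In FFPE against FR, 7 of 10 members were higher at an adjusted p of 0.05 (Clock, Per1, Per2, Per3, Nr1d1, Nr1d2 and Tef) and none lower, where 53% of all genes were called higher and 17.3% lower. These 7 were also the ones higher in FR>FFPE against FR, beside 56.5% of all genes higher and 8.93% lower. In FR>OH against FR, 6 were higher, these without Nr1d2, beside 41.7% higher and 13.3% lower. The counts lie near that background, and the sizes tell more. The median log2 fold change of the members was 0.89 against 0.32 for all genes in FFPE. It was 0.78 against 0.34 in FR>FFPE, and for FR>OH 0.71 against 0.18.

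Per2, an inhibitor of the activator pair, ranged over the 12 mice from 5.77 to 13.89 CPM in FR, with a median of 10.9, and from 13.90 to 29.8 CPM in FFPE, with a median of 25.7. The FFPE and FR libraries did not overlap, though the lowest FFPE library, of mouse 20B, barely exceeded the highest FR library, of mouse 75C. Per2 was 1.23 ± 0.14 (SE) log2 units higher in FFPE (adjusted p = 2.65e-10), 1.17 ± 0.14 for FR>FFPE and 0.95 ± 0.14 for FR>OH, and each of the 12 mice was higher in each of the 3 embedded preparations than in FR.

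Per3, another member of the Per family, was higher with more spread. Its median was 3.48 CPM in FR and 11.6 CPM in FFPE, with ranges of 2.04 to 9.12 and 0.986 to 20.5 CPM that overlap. The log2 fold change was 1.36 ± 0.32 in FFPE (adjusted p = 0.000198), 1.23 ± 0.31 for FR>FFPE and 0.97 ± 0.31 for FR>OH, with 11 of 12 mice higher in FFPE, all but mouse 8C. Per1 had a median of 1.99 CPM in FR and 5.15 in FFPE, in overlapping ranges. It was 1.30 ± 0.30 log2 units higher in FFPE (adjusted p = 0.000163), 0.90 ± 0.29 for FR>FFPE and 0.87 ± 0.30 for FR>OH, and higher in 12 of 12 mice in each.

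Tef had a median of 33.7 CPM in FR and 74.1 in FFPE, and the ranges of 20.9 to 56.3 and 39.0 to 102.5 CPM overlapped. Its log2 fold change was 1.08 ± 0.18 in FFPE (adjusted p = 7.3e-07), 0.93 ± 0.18 for FR>FFPE and 0.76 ± 0.18 for FR>OH. Nr1d1 was 0.89 ± 0.22 log2 units higher in FFPE (adjusted p = 0.000365), 0.65 ± 0.22 for FR>FFPE and 0.66 ± 0.22 for FR>OH. Every mouse was higher than its own FR library in each of the 3 for both genes. At 2-fold or more, 4 members were called in FFPE (Per1, Per2, Per3 and Tef), where 13% of all genes were, 2 in FR>FFPE (Per2 and Per3), where 6.47% were, and 0 in FR>OH, where 3.9% were.

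Dbp was 0.89 ± 0.47 log2 units above FR in FFPE, 0.93 ± 0.45 in FR>FFPE and 0.94 ± 0.46 for FR>OH and passed in none (adjusted p = 0.0881, 0.0687 and 0.0764). These SE hold the whole spread between mice. With the mouse as a block, which compares each embedded piece with the FR library of the same animal, Dbp passed in all 3, at 0.87 ± 0.11, 0.90 ± 0.10 and 0.89 ± 0.10 (adjusted p = 5.74e-10, 5.32e-11 and 7.48e-11). The block also raised the share of all genes called higher, to 56.6% (FFPE), 62.2% (FR>FFPE) and 47.9% (FR>OH). Under that block Arntl also passed, at 0.23 ± 0.06 in FFPE and 0.23 ± 0.06 for FR>FFPE (adjusted p = 0.00049 and 0.000238), as did Nr1d2 in FR>OH at 0.20 ± 0.04 (adjusted p = 8.09e-05). Cry1 passed under the block in FR>FFPE alone, at 0.17 ± 0.08 (adjusted p = 0.0458).

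**Figure D5:**
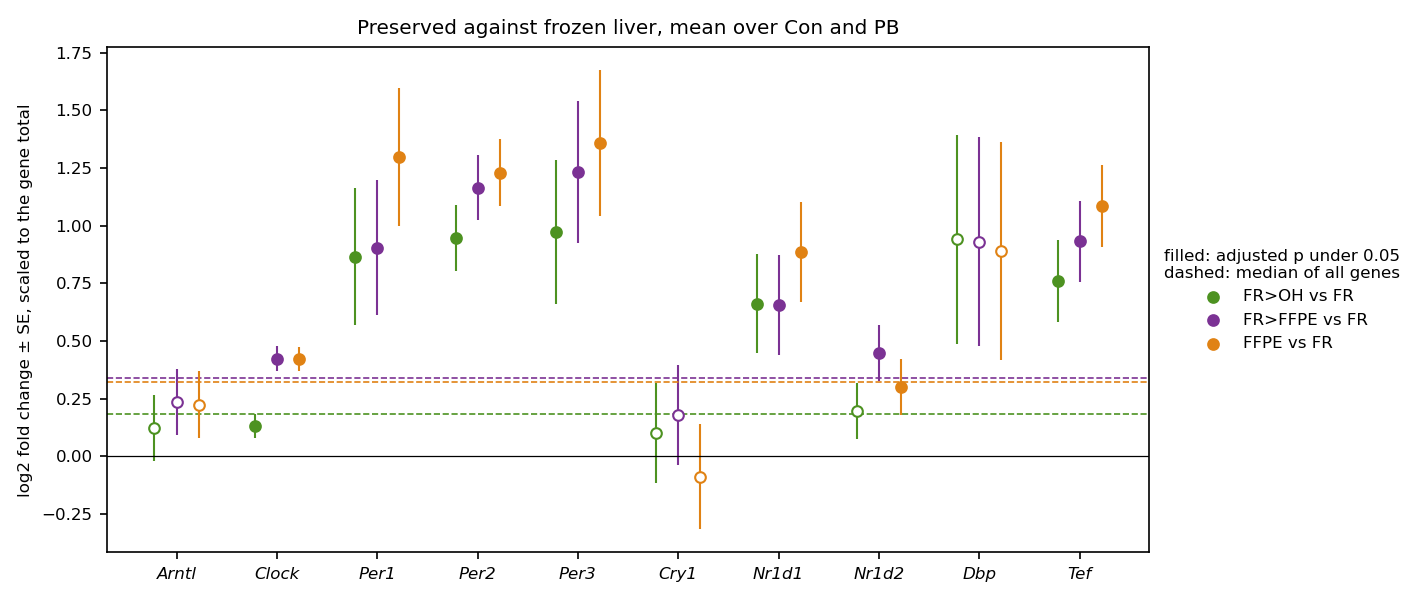
Log2 fold change of each clock gene, with its SE, in FR>OH, FR>FFPE and FFPE against FR, scaled to the total of counts on genes; filled points passed an adjusted p of 0.05 and dashed lines are the medians of all genes, 0.18, 0.34 and 0.32. The Per genes, Nr1d1, Dbp and Tef lie above those medians in all 3 comparisons, whereas Arntl and Cry1 lie below them; on the log2 CPM of the authors Nr1d1 and Dbp are at -0.03 and -0.14 in FFPE.

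Arntl and Cry1 stayed below the median gene. Arntl had medians of 23.9 CPM in FR and 27.4 in FFPE and log2 fold changes of 0.22 ± 0.14, 0.23 ± 0.14 and 0.12 ± 0.14 in FFPE, FR>FFPE and FR>OH. Cry1 had medians of 11.2 CPM in FR and 10.0 in FFPE, with -0.09 ± 0.23, 0.18 ± 0.22 and 0.10 ± 0.22, and 6 of 12 mice were higher in FFPE. Clock was 0.42 ± 0.05 higher in FFPE and in FR>FFPE and 0.13 ± 0.05 in FR>OH, close to the medians of all genes. Its FR>FFPE libraries, 148 to 199 CPM, lay above all FR libraries, at 117 to 146 CPM. Nr1d2 was 0.30 ± 0.12 higher in FFPE, 0.45 ± 0.12 in FR>FFPE and 0.20 ± 0.12 for FR>OH.

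The direction depends on the total to which counts are scaled, and a smaller share of reads counted towards genes in embedded samples. TMM scaling moved the median of all genes in FFPE against FR by -0.28 log2 units, and 34.1% of genes were then called higher and 31.3% lower. On the log2 CPM of the authors, which divides by all reads, it moved by -1.02, to 6.10% higher and 71.7% lower. Under TMM, Per2, Per3 and Tef remained called higher in all 3 preparations, with Per2 at 0.95, 0.86 and 0.76. Of all genes, TMM called 27.2% higher in FR>FFPE and 25.2% in FR>OH. Per1 remained called in FFPE alone, at 1.02, and Nr1d1 in FFPE alone, at 0.60. On the log2 CPM of the authors, Arntl, Clock, Cry1 and Nr1d2 were called lower in FFPE, at -0.74, -0.54, -1.13 and -0.65, and the other 6 were not called, at 0.25 for Per1, 0.28 for Per2, 0.27 for Per3, -0.03 for Nr1d1, -0.14 for Dbp and 0.12 for Tef.

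The library titles carry a number after the letter L, of unstated meaning, that differs between most groups. With that number as a term in a fit to FR and FFPE, 2 members remained called, Clock at 0.42 ± 0.11 and Per2 at 1.34 ± 0.27. The share of all genes called with that term is not given here, so the count is not a result about the members. Per3 was 1.43 ± 0.66 (adjusted p = 0.0819) and Tef 0.77 ± 0.33 (adjusted p = 0.0671) in that fit, Per1 0.55 ± 0.68, Nr1d1 0.48 ± 0.45 and Nr1d2 0.02 ± 0.23. Within number 2, which held 2 PB libraries of each kind, Per2 averaged 10.5 CPM in FR and 27.3 in FFPE, Per3 4.59 and 12.7, Tef 33.0 and 60.1, Nr1d1 48.6 and 73.2, Clock 124 and 162, and Per1 1.73 and 2.75. Nr1d2 averaged 79.8 and 80.6 CPM, Dbp 5.17 and 6.61, Arntl 20.6 and 25.1, and Cry1 9.06 and 13.5. The 2 FR mice there (18B and 18D) were not the 2 FFPE mice (75C and 80B). FR>OH and FR share no such number, so it cannot be told apart from that comparison. Markers of cell types moved as well. In FFPE against FR, 5 of 6 hepatocyte markers were lower and 1 higher, their sum going from between 43581 and 91500 CPM to between 22416 and 40929. Of 6 Kupffer cell markers 5 were lower (sums of 215.8 to 529.9 and 141.5 to 380.4 CPM), and of 5 erythroid markers 4. Of 5 stellate markers 2 were lower and 1 higher, 1 of 5 endothelial and 2 of 4 cholangiocyte markers were higher, and the 1 lymphocyte marker tested was not called. In FR>OH all 5 endothelial, 5 of 6 Kupffer cell, 5 of 6 hepatocyte, 2 of 5 stellate and 2 of 5 erythroid markers were lower. In FR>FFPE 4 of 6 hepatocyte, 3 of 6 Kupffer cell, 2 of 5 endothelial, 1 of 5 stellate and 3 of 5 erythroid markers were lower. In each of these 2 preparations 1 hepatocyte and 1 cholangiocyte marker were higher. The part of these shifts in the members' values was not tested.

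Between directly fixed and frozen-then-fixed liver, FFPE against FR>FFPE, no member was called by edgeR, while 29.2% of all genes were, and 0 members had an unadjusted p under 0.05. DESeq2 called 0. On the log2 CPM of the authors limma called 6, all of them lower, where it called 83% of all genes lower. With the mouse as a block 5 were called, beside 43.6% of all genes, Nr1d1 higher in FFPE by 0.24 ± 0.05, Per1 by 0.40 ± 0.14 and Tef by 0.16 ± 0.05, Cry1 lower at -0.28 ± 0.09 and Nr1d2 lower at -0.14 ± 0.04 (adjusted p = 0.000156, 0.018, 0.00674, 0.00694 and 0.00845). The direction of the first 3 turned on the log2 CPM of the authors, to -0.33 for Nr1d1, -0.26 for Per1 and -0.41 for Tef.

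The members differ in base composition. The longest annotated transcript (GENCODE M21) had 61.6% G and C in Dbp, 59.4% in Per1, 56.8% in Nr1d1, 54.4% in Per2, 53.2% in Tef and 52.4% in Per3. The 4 members nearest to or below the all-gene shift had less, 51.6% in Cry1, 48.2% in Arntl, 41.8% in Nr1d2 and 40.9% in Clock, beside a median of 49.5% for all genes. Over 13100 genes with a transcript, the median log2 fold change in FFPE against FR was 0.08 in the fifth of genes with the least G and C and 0.69 in the fifth with the most, which starts at 55.3%. In FR>OH these medians were 0.01 and 0.50, and in FR>FFPE 0.28 and 0.51. Log2 fold changes over these genes also ran with transcript length. Spearman's rho with G and C and with length was 0.32 and 0.37 in FFPE, 0.17 and 0.40 in FR>FFPE, and 0.39 and 0.29 in FR>OH. Among the members the longest transcript had 1837 bases in Dbp and 9744 in Clock. The part of base composition or transcript length in the members' values was not tested.

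Under PB, Per1 was lower in frozen and ethanol-fixed liver. Per1, which inhibits the activator pair, was 1.26, 2.56, 2.89, 4.14, 4.34 and 6.82 CPM in the 6 FR Con libraries, with 0.876 to 2.10 CPM in the 6 FR PB libraries around a median of 1.43. The groups overlapped through Con mouse 8D, the lowest of its group. Per1 was -1.32 ± 0.43 (SE) log2 units in PB against Con in FR (adjusted p = 0.0413) and -1.51 ± 0.41 in FR>OH (adjusted p = 0.00912). It was the 1 member of 10 called lower in each. The spread behind these p was estimated from all 48 libraries without a mouse term. The 4 libraries of a mouse are not independent, so these p may be too small. Of all genes 2.6% were called lower and 5.85% higher in FR, and 3.78% lower and 8.41% higher in FR>OH.

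In FR>FFPE Per1 was -1.12 ± 0.40 (adjusted p = 0.0835) and in FFPE -1.05 ± 0.41 (adjusted p = 0.128), with no member called in either. All genes called in FR>FFPE were 6.22% higher and 0.987% lower, and in FFPE 4.64% and 1.98%. By DESeq2, Per1 passed in FR>FFPE as well (adjusted p = 0.0414), and by limma on the log2 CPM of the authors it passed in FR>OH alone. The call in FR was lost without any of mice 8A, 8C, 82B, 18D, 20B, 20D, 75C or 80B, while that in FR>OH was kept whichever mouse was left out. Without mouse 8D, Per1 was also called in FR>FFPE. With the number after L as a term it was lost in both, at -1.07 ± 0.60 in FR and -0.80 ± 0.39 in FR>OH. Within number 2 in FR, the 6 Con libraries averaged 3.67 CPM and the 2 PB libraries 1.73, and within number 5 in FR>OH 3 Con libraries averaged 4.32 and 6 PB libraries 2.51. In FR>FFPE that number cannot be told apart from PB.

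The other 9 members gave no call for PB in any preparation. Their log2 fold changes lay between -0.56, for Dbp in FR>OH with an SE of 0.63, and 0.31, for Per3 in FFPE with an SE of 0.44. The precision differed widely among them, as the SE in FR was 0.07 for Clock, 0.17 for Nr1d2, 0.20 for Arntl and 0.66 for Dbp. The interaction of PB with preparation was not called for any of 10 members in FFPE, FR>FFPE or FR>OH (0 with an unadjusted p under 0.05 in each). Of all genes 0% were called in each, by edgeR, DESeq2 and limma alike, although 463, 288 and 305 genes had an unadjusted p under 0.05 by edgeR. With the mouse as a block, edgeR called 1 gene for FFPE (0.00748% of all), 0 for FR>FFPE and 37 for FR>OH (0.277%), none of them a member.

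As a share of the counts on genes, most genes of the wider clock were also higher in embedded liver. Of 20 further clock genes 18 were tested. In FFPE against FR 16 were higher and 0 lower, beside 53% of all genes higher and 17.3% lower. Their count under TMM, where 34.1% of all genes were higher and 31.3% lower, is not given here. On the log2 CPM of the authors Cipc and Cry2 turned to -0.05 and -0.01. Scaled to the counts on genes, the median log2 fold change of the 18 was 0.50, beside 0.32 for all genes. The largest were Npas2, the relative of Clock, at 1.22 ± 0.23, Bhlhe41, a repressor that binds E-boxes, at 1.19 ± 0.33, and Csnk1e, a kinase that marks Per proteins, at 1.06 ± 0.10. Cry2, a second cryptochrome, was 0.94 ± 0.13 and Cipc, an inhibitor of the Clock protein, 0.91 ± 0.05 higher. For FR>FFPE 17 of the 18 were higher and for FR>OH 13, beside 56.5% and 41.7% of all genes, with none of the 18 lower in either. Between mice 14 of the 18 were called, beside 61.9% of all genes.

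Under PB, Hlf, the third D-box factor beside Dbp and Tef, was lower in FR at -0.46 ± 0.12 (adjusted p = 0.00957), in FR>OH at -0.39 ± 0.12 (adjusted p = 0.0255) and in FFPE at -0.44 ± 0.12 (adjusted p = 0.0215). It was the 1 gene of the 18 called in each of those comparisons, and none was called in FR>FFPE. Of all genes, 2.6% (FR), 3.78% (FR>OH) and 1.98% (FFPE) were called lower under PB. Of 14 tested genes linked to the clock's output, 3 were higher and 2 lower under PB in FR, beside 5.85% and 2.6% of all genes. Those higher were Por, the reductase that serves cytochromes P450, at 2.38 ± 0.27, Tfrc, the transferrin receptor, at 1.54 ± 0.28, and Wee1, a cell cycle kinase, at 1.39 ± 0.33. Those lower were Ppara, a receptor for fatty acids, at -0.85 ± 0.19 and Avpr1a, a vasopressin receptor, at -0.30 ± 0.09.

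Of these 14, 4 were higher and 1 lower in FFPE against FR, 6 and 0 in FR>FFPE and 5 and 0 for FR>OH. Of all genes, 53%, 56.5% and 41.7% were called higher and 17.3%, 8.93% and 13.3% lower. The median log2 fold change of the 14 was 0.04 beside 0.32 for all genes in FFPE. It was 0.27 beside 0.34 in FR>FFPE and 0.20 beside 0.18 in FR>OH. Between mice 12 of the 14 were called, beside 61.9% of all genes. Glucocorticoid-induced genes, 9 in all, had 3 higher and 0 lower in each embedded preparation against FR, a smaller share than the 53%, 56.5% and 41.7% of all genes called higher. Under PB 2 of the 9 were lower in every preparation, Pck1, an enzyme of glucose synthesis, at -1.36 ± 0.24 in FR and Tat, a tyrosine aminotransferase, at -0.55 ± 0.16. The share of all genes called lower was 2.6% (FR), 3.78% (FR>OH), 0.987% (FR>FFPE) and 1.98% (FFPE). Of 7 tested immediate early genes, 5 were higher for both FFPE and FR>FFPE and 4 for FR>OH, beside 53%, 56.5% and 41.7% of all genes. Their direction on the other scalings was not followed. Under PB, Junb was lower in FR>OH, at -1.25 ± 0.31, and no immediate early gene was called in the other preparations.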

How the data were processed

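Total RNA libraries from the 12 mice were analysed as 48 columns. Per the study's methods, the authors aligned reads with STAR 2.5.3a to GRCm38 and deposited estimated counts from an expectation-maximization step on RefSeq transcripts, of which 92.2% are whole numbers. The authors also deposited log2 CPM values, whose divisor is the total reads of a library. TempO-Seq tables of the series were not used here.

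The members and gene lists were chosen with earlier results of these data known. Estimated counts were rounded, genes with a geometric mean over 1 count (offset 0.0001) were kept, and edgeR 4.0.16 (R 4.3.3) was fitted by quasi-likelihood to 8 groups with column totals as library sizes. Preservation comparisons average Con and PB. An adjusted p (Benjamini-Hochberg over 13370 genes) under 0.05 was a call. Relations over mice used log2(CPM + 0.5), centred within treatment, with Benjamini-Hochberg over 60 or 45 relations. Alternatives were TMM, DESeq2 1.42.0, limma 3.58.1, other filters and totals, a mouse block and leaving out each mouse. The scripts were tested on simulated data.

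Preparations with the same mouse number come from the same animal. Over all genes, deviations of the 72 pairs of preparations of a mouse correlated between 0.267 and 0.708, against a median of -0.0760 for different mice. Depth on genes was 4952797 to 13702672 counts and sets the counting error of Per1, Per3 and Dbp. Of the 120 pairs of replicates, 0 were identical. All members were named. From the further lists, the called genes were named, up to the 5 with the largest absolute log2 fold change per list and comparison, and the genes most and least like Arntl and Dbp were taken from the 5 with the highest and lowest r, of which 1 is not reported here. Values given within number 2 or 5 of the titles and relative to the median of all genes were added after the data were seen.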

Additional observations from a re-analysis of the deposited data

Results flagged for a closer look

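Within the 80 groups of 6 libraries (10 members in 8 groups), 5 had a highest or lowest library farther from its neighbour than Dixon's 95% critical value allows, and chance gives about 1 in 20 groups. Per2 was lowest in mouse 20B in PB livers, at 8.15 CPM in FR>OH against 19.1 for the next mouse and at 13.9 CPM in FFPE against 25.6. Clock was highest at 170.0 CPM in mouse 18D in FR>OH PB, against 143.3, and at 205.5 CPM in mouse 8C in FFPE Con, against 175.1. Cry1 was highest at 18.7 CPM in mouse 75C in FR>OH PB, against 11.6. In the other preparations mouse 75C was also highest for Cry1, at 15.6 CPM in FR, and mouse 20B also lowest for Per2, at 5.77 CPM in FR.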

How the results depend on the processing

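With the mouse as a replicate block (paired by animal), the members called against FR, all higher, numbered 9 (FFPE), 10 (FR>FFPE) and 8 (FR>OH). Of all genes, 56.6%, 62.2% and 47.9% were called higher there. In FFPE against FR>FFPE 5 members were called, beside 43.6% of all genes, where 0 were called without the block, beside 29.2%. An exact sign-flip test of the paired differences, run on the members alone and so without a share of all genes, called 9, 10 and 9. The 7 members higher in FFPE against FR fell to 2 with the title number as a term, for which the share of all genes is not given. By limma on the authors' log2 CPM 0 were higher and 4 lower, beside 6.10% of all genes higher and 71.7% lower. In FR>FFPE it fell from 7 to 4 under TMM and DESeq2 and to 3 by limma, and in FR>OH from 6 to 3 under TMM. Limma called 2 in FR>OH, Per2 higher and Clock lower, beside 14.9% of all genes higher and 36.2% lower. In FFPE against FR>FFPE it called 6 lower, beside 83% of all genes. For PB the call of Per1 became 0 in FR with the title number or by limma and ranged from 0 to 1 over the mice left out. In FR>OH it became 0 with the title number, and in FR>FFPE DESeq2 called 1, with 0 to 1 over the mice left out. Between mice, all 10 were called in every setting tried. The relations within members numbered 54 of 60 with 2 CPM added and 56 under TMM, and those between members 13 and 16 of 45, against 54 and 12. For the relations between members, the share among pairs of other genes is not given.

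Directions of the members and of the named genes reversed as follows. By limma in FFPE against FR, Arntl was -0.74, Clock -0.54, Nr1d1 -0.03, Nr1d2 -0.65, Dbp -0.14, Cipc -0.049 and Cry2 -0.0089. By limma Arntl was -0.16 and Cry1 -0.22 in FR>FFPE, and Arntl -0.22, Clock -0.20, Cry1 -0.23 and Nr1d2 -0.13 in FR>OH. Of the 5 members called under the block in FFPE against FR>FFPE, Per1 was -0.26, Nr1d1 -0.33 and Tef -0.41 by limma. Under TMM, Arntl was -0.058, -0.076 and -0.066 in FFPE, FR>FFPE and FR>OH, Cry1 -0.13 and -0.084 in the last 2, and Clock -0.057 for FR>OH. DESeq2 gave -0.066, -0.079 and -0.069 for Arntl in the same order, -0.14 and -0.085 for Cry1, and -0.06 for Clock. Cry1 in FFPE was 0.51 with the title number. Relative to the median of all genes, of the members called, Nr1d2 was -0.023 in FFPE and Clock -0.0518 in FR>OH. The cause of these changes beyond the scaling itself was not tested. Depth limits Per1, Per3 and Dbp most, at 5 to 7 counts in their lowest libraries.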

Other observations

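Several genes of the wider lists differed between mice as much as the members. Of the 13370 genes tested, 0.322% had a larger F between mice than Alas1, the first enzyme of heme synthesis (F = 192.7), 0.793% than Elovl3, a fatty acid elongase (F = 114.8), and 1.09% than Bhlhe40, a repressor that binds E-boxes (F = 91.5), beside 1.08% for Dbp (F = 91.9). The metallothionein genes Mt1 and Mt2 had F = 471.1 and 519.2, and Egr1, an immediate early gene, had F = 188.4. These genes were taken from the lists after their values were seen.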
